A study of Mus musculus with 16 samples.

Results

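The genes of the major histocompatibility complex (MHC) and of antigen presentation were described in sorted endothelial cells of mouse liver and lung, with and without activated beta-catenin. They were taken by name: every entry of the count tables whose symbol starts with H2-, the mouse MHC prefix, and entries for B2m, Tap1, Tap2, Tapbp, Cd74, Ciita, Nlrc5, Psmb8, Psmb9 and Psmb10. The rule found 54 entries with 52 symbols among 37991 entries in all. Among them H2-Ke2 and H2-Ke6 carry the prefix but are genes of another kind, and H2-Ke2 is counted with the tested members below. No measured value entered the choice.

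Nucleated cells use MHC class I molecules, a heavy chain with beta-2-microglobulin, to show peptides cut by the proteasome and carried into the endoplasmic reticulum by the TAP transporter. Class II molecules, an alpha and a beta chain guided by the invariant chain Cd74, show peptides from endosomes and are made mainly by professional antigen-presenting cells under the master regulator Ciita. Endothelial cells of liver sinusoids and of lung capillaries are also known to carry class I and, at lower and variable levels, class II.

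Endothelial cells were sorted with an antibody to CD31 from adult mice, and each of the 4 groups, control and GOF in liver and in lung, has 4 libraries. Control mice carried the Rosa-Bcat-GOF allele, an activatable form of beta-catenin, on 1 chromosome; GOF mice carried the same allele and VE-Cadherin-CreERT2, a tamoxifen-inducible Cre driven by an endothelial promoter. Strain, exact age and dosing are not stated in those labels. Controls lacked the Cre, so effects of Cre and of activated beta-catenin cannot be told apart. Libraries are lettered, in liver as B, E, F or G and in lung as B, E, F or D, and those of 1 letter deviated together within a tissue; the fit with the letter as a block is called paired below.

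Total counts lay between 22815467 and 37127150 per library, and the 54 entries held between 0.667% and 1.06% of them. The endothelial gene Pecam1, which encodes CD31, lay between 1747 and 3215 CPM (read counts scaled to equal library size, by TMM over all 16 libraries). The defining B and T cell transcripts Cd79a and Cd3e lay at most at 4.90 and 1.68 CPM. Markers of non-endothelial cells were present: Sftpc, the surfactant gene of alveolar type 2 cells, at 795 to 8339 CPM in lung, and Alb, a hepatocyte gene, at 511 to 2726 CPM in liver. The GOF libraries liver E, liver G and lung E stood apart in the class I genes H2-T23 and H2-T22, as described below. The 2 liver libraries also stood apart in H2-D1, and lung E had the highest H2-D1 of its tissue. CPM values carry no correction for transcript length, so levels are compared between libraries and not between genes. In these bulk libraries fewer cells of a type and less RNA per cell cannot be told apart.

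The upstream sequences of some members are shown because all class II chain genes tested differed between the tissues, whereas the classical class I genes did not pass. RefSeq promoter windows of GRCm38.p6, from 250 bases before to 50 bases after the annotated start, were found for 37 of the 52 symbols. The last 200 bases before the start are printed for 4 class II genes, in the direction of transcription. They span chr17:34287824-34288023 (minus strand) for H2-Aa, the I-A alpha chain, and chr17:34305667-34305866 (plus strand) for H2-Eb1, the I-E beta chain. Those of the peptide-editing DM beta chains span chr17:34152991-34153190 for H2-DMb1 and chr17:34145049-34145248 for H2-DMb2, both on the plus strand. Capitals mark the Y box TGATTGG, a motif bound by NF-Y, and upstream of it a longer X-type string, which lies where class II promoters carry their X box, bound by RFX and CREB proteins.
H2-Aa: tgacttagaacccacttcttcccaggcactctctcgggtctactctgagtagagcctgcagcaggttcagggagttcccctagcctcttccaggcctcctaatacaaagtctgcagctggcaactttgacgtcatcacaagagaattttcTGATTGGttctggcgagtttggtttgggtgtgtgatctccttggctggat
H2-Eb1: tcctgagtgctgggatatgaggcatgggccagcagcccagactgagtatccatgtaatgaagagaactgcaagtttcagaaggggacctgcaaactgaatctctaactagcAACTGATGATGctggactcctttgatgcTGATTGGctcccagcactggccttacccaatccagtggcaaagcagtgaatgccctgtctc
H2-DMb1: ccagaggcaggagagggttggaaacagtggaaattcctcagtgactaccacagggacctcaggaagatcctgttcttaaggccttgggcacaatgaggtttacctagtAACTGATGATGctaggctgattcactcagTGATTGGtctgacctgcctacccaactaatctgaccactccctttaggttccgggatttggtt
H2-DMb2: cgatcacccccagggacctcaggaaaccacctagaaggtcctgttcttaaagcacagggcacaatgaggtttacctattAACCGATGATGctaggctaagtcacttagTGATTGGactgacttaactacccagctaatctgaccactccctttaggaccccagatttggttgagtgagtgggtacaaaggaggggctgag

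The Y box, searched on both strands, was in 7.82% of all 32851 RefSeq windows and in the windows of 7 of the 8 class II symbols that have one. It was also in those of 15 of the 22 class I heavy chain symbols with a window, so it was not particular to class II. The X-type string, also searched on both strands, was in 0.137% of all windows and in those of 4 class II genes, H2-Eb1, H2-DMb1, H2-DMb2 and H2-Ob. It was written down after these windows had been read, so its share among them is no evidence. In H2-Eb1 it ended 17 bases before the Y box, and in H2-DMb1 and H2-DMb2 18 bases before it. Its letters were not in the H2-Aa window.

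For class I, 3 windows are shown: those of the classical heavy chains H2-K1 (chr17:34000348-34000547, minus strand) and H2-D1 (chr17:35262894-35263093, plus strand), which did not pass the test between tissues, and that of H2-Q10 (chr17:35469889-35470088, plus strand), a secreted class I molecule made in liver. Capitals mark enhancer A (the NF-kappa-B palindrome of class I promoters), an interferon-type string (TTTCACTTC) and, in the printed bases of H2-D1 alone, the Y box letters on the opposite strand. The H2-K1 window shown also held the Y box letters on the opposite strand, at position 8 from its annotated start and thus past the printed bases. Another RefSeq window of H2-K1 held them at position -6, before its own annotated start.
H2-K1: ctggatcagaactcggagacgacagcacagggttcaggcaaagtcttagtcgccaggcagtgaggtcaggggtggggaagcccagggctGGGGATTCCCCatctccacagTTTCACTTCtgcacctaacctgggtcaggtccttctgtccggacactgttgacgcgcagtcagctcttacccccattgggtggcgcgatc
H2-D1: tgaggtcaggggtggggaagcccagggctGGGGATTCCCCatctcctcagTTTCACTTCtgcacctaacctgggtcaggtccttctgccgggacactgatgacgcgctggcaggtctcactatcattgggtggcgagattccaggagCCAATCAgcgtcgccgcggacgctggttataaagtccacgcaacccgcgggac
H2-Q10: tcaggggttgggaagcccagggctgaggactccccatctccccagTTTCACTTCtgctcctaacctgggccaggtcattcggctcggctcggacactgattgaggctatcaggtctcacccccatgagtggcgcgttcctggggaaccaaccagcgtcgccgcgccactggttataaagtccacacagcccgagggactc

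Enhancer A was in 0.0304% of all windows, and among the 22 class I heavy chain symbols with a window in those of 3, H2-K1, H2-D1 and H2-Q6. Its exact letters were not in the H2-Q10 window. The interferon-type string was in 0.505% of all windows and in those of 7 class I heavy chain genes, H2-Q10 included. A repeated GAAA with a short gap, also searched on both strands, was in 3.44% of all windows and in those of B2m, H2-T22 and H2-T23. In the printed windows no match overlapped another.

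Of the 54 entries, 31 had reads in every library. Another 11 had 0 reads in all libraries. These are H2-M1, H2-M9, H2-M11, the H2-M10 genes and both entries named Psmb9, an immunoproteasome subunit, whose level was therefore not measured. At least 1 comparison could test 37 entries, and the other 6 entries with reads had at most 67 over all libraries. Class I heavy chain genes are a family of near-identical copies that also differ between mouse strains. Reads were aligned to mm9; the MHC alleles of these mice, and how shared reads and strand were counted, are not given by the labels. The value of a single class I gene is uncertain to that extent.

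The class II chain genes and Cd74 stood 8.13- to 17.6-fold higher in lung than in liver endothelial libraries, over control and GOF mice. All 4 class II chain genes that could be tested, the invariant chain Cd74, the peptide editor H2-DMa and the regulator Ciita were higher in lung in both genotypes. H2-Q10 was lower in lung, and the classical class I genes H2-K1 and H2-D1 did not pass in either genotype. In controls 12 of 36 tested members were called, 8 higher and 4 lower, at an adjusted p under 0.05 by edgeR's quasi-likelihood test with Benjamini-Hochberg adjustment over all genes. Of all 15806 genes, 24.9% were called, 14.0% higher and 11.0% lower. In GOF 12 of 35 were called, 11 higher and 1 lower, where 25.4% of 15905 genes were called, 14.5% higher and 10.8% lower. In controls the share of members lower in lung was close to that of all genes and in GOF it was smaller, while the share higher in lung was above it in both. Their median log2 fold change was 0.08 in controls and 0.40 in GOF (all genes -0.04 and -0.03).

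H2-Aa stood at 10.9, 6.13, 3.73 and 8.04 CPM in liver controls B, E, F and G and at 147, 52.9, 75.2 and 205 CPM in lung controls B, E, F and D. In GOF it stood at 5.51, 9.02, 3.33 and 8.53 CPM in liver and at 101, 84.1, 70.5 and 113 CPM in lung. Every lung library was above every liver library, and E and F were the lower lung controls. The log2 fold change, lung over liver, was 4.07 ± 0.48 (SE; adjusted p = 0.000145, edgeR) in controls, or 16.8-fold, and 3.81 ± 0.32 (adjusted p = 1.40e-05) in GOF.

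H2-Ab1, the I-A beta chain that pairs with H2-Aa, stood at 24.8, 5.04, 2.52 and 17.2 CPM in liver controls and at 143, 60.9, 74.2 and 180 CPM in lung controls, in the same library order. In GOF the values were 9.19, 4.80, 4.08 and 6.28 CPM in liver and 121, 77.3, 58.6 and 126 CPM in lung. The tissues again did not overlap, and liver controls B and G lay well above E and F. The log2 fold change was 3.21 ± 0.66 (adjusted p = 0.00461, edgeR) in controls and 3.98 ± 0.34 (adjusted p = 1.46e-05) in GOF.

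H2-Eb1, the I-E beta chain, stood at 13.4, 5.10, 2.98 and 10.24 CPM in liver controls and at 89.3, 32.6, 41.9 and 116 CPM in lung controls. In GOF it stood at 4.19, 2.26, 2.18 and 4.38 CPM in liver and at 67.5, 39.2, 30.5 and 64.9 CPM in lung. It shared with H2-Ab1 the higher level in liver controls B and G. Its log2 fold change was 3.15 ± 0.54 (adjusted p = 0.00148, edgeR) in controls and 3.96 ± 0.36 (adjusted p = 2.26e-05) in GOF.

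H2-Ea-ps carries the I-E alpha chain gene, which is annotated as a pseudogene in the reference strain. It stood at 0.199, 1.18, 2.46 and 8.99 CPM in liver controls and at 39.8, 24.4, 29.1 and 61.8 CPM in lung controls. In GOF it stood at 2.50, 3.19, 2.69 and 4.04 CPM in liver and at 69.4, 41.4, 39.9 and 66.5 CPM in lung. Reads were thus counted at this entry in all 16 libraries, and liver control B, the highest for the other 3 class II chains, was the lowest here with 6 reads. The log2 fold change was 3.62 ± 0.84 (adjusted p = 0.00866, edgeR) in controls and 4.13 ± 0.28 (adjusted p = 3.26e-06) in GOF.

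Cd74 stood at 52.2, 21.6, 22.4 and 64.2 CPM in liver controls and at 363, 175, 260 and 503 CPM in lung controls. In GOF it stood at 20.9, 36.8, 23.8 and 24.04 CPM in liver and at 531, 298, 267 and 428 CPM in lung. The lowest lung library was above the highest liver library. Its log2 fold change was 3.02 ± 0.44 (adjusted p = 0.000547, edgeR) in controls and 3.87 ± 0.28 (adjusted p = 6.14e-06) in GOF. The calls of H2-Aa, H2-Ab1, H2-Eb1, H2-Ea-ps and Cd74 were kept in all 13 alternatives in controls and all 14 in GOF.

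**Figure D1:**
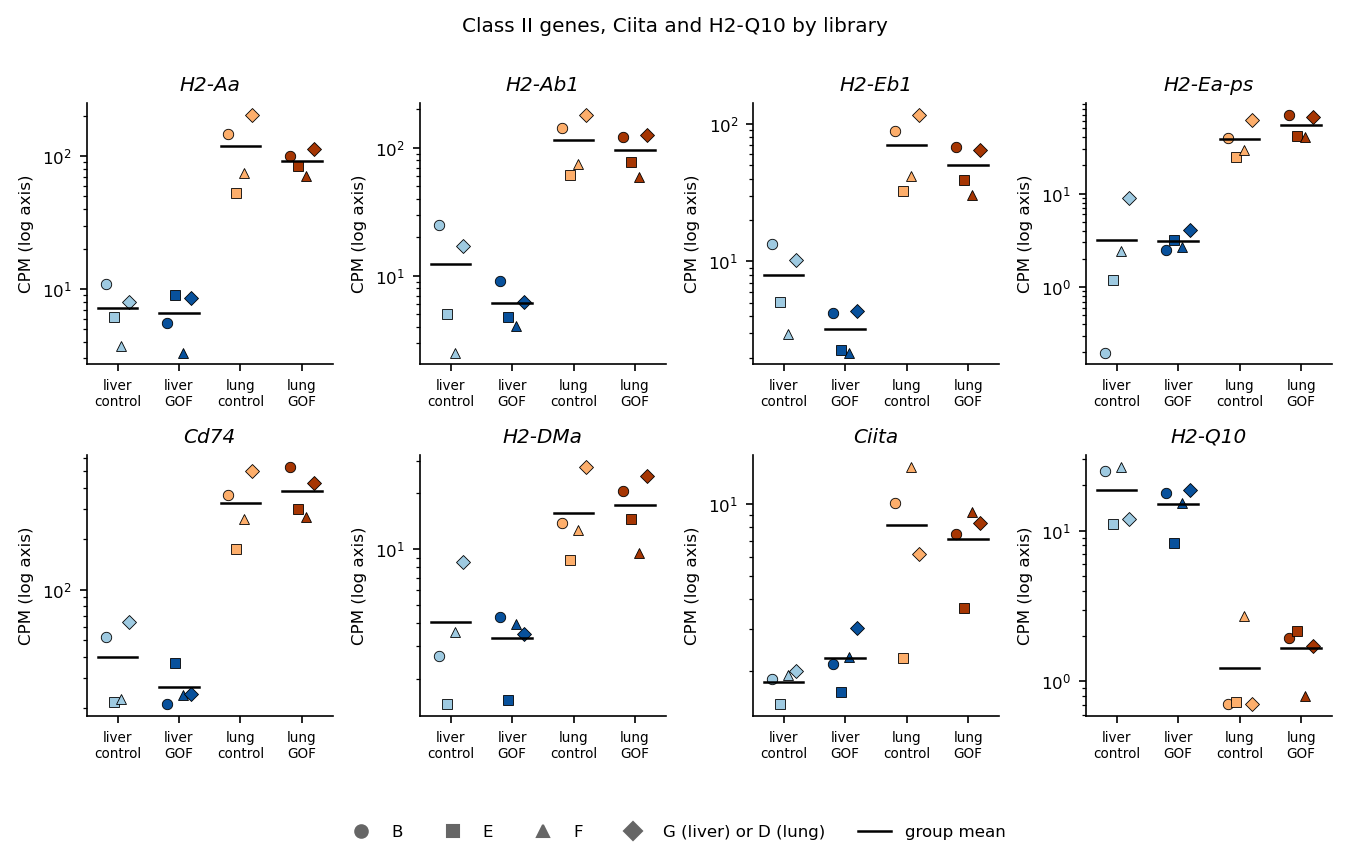
Levels of 8 genes in each library, in CPM on a log axis, by group; marker shapes give the replicate letter and horizontal lines the arithmetic group mean. The 4 class II chain genes, Cd74, H2-DMa and Ciita lie higher in lung, where Ciita of lung control E (2.27 CPM) falls close to the liver libraries, and H2-Q10 lies higher in liver.

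Of the genes that load class II molecules, H2-DMa, the alpha chain of the peptide editor DM, stood at 2.66, 1.46, 3.56 and 8.54 CPM in liver controls and at 13.9, 8.70, 12.6 and 27.7 CPM in lung controls. In GOF it stood at 4.32, 1.54, 3.96 and 3.50 CPM in liver and at 20.5, 14.6, 9.50 and 24.7 CPM in lung. The tissues did not overlap, though liver control G nearly reached lung control E. The log2 fold change was 1.97 ± 0.55 (adjusted p = 0.0235, edgeR) in controls and 2.39 ± 0.41 (adjusted p = 0.00145) in GOF. The call in controls was lost without liver control B (1.83, adjusted p = 0.051), liver control F (1.93, 0.0585) or lung control D (1.54, 0.0863).

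Both DM beta chain genes had few reads in liver. H2-DMb1 stood at 7.05, 0, 0 and 0.4997 CPM in liver controls and at 23.6, 5.24, 3.31 and 17.4 CPM in lung controls, and the tissues overlapped through liver control B. In GOF it stood at 0.896, 1.32, 0.356 and 2.11 CPM in liver and at 8.57, 7.66, 6.89 and 7.01 CPM in lung, without overlap. It passed in GOF (2.68 ± 0.54, adjusted p = 0.00407, edgeR) and not in controls (2.72 ± 1.44, adjusted p = 0.210), where it passed without liver control B (6.40, adjusted p = 0.00629). H2-DMb2 had 0, 0, 11 and 17 reads in liver controls and 60, 120, 103 and 128 in lung controls (3.80 ± 1.299, adjusted p = 0.0557, edgeR). DESeq2 called it (adjusted p = 0.00335), and so did edgeR without liver control G (5.004, adjusted p = 0.034). In GOF it had 7, 19, 13 and 16 reads in liver and 87, 99, 88 and 246 in lung (3.20 ± 0.66, adjusted p = 0.00475). That call was lost without the libraries low in H2-T23 (3.58, adjusted p = 0.055).

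The genes of the DM modulator DO, H2-Oa and H2-Ob, were near the limit of detection, with at most 67 and 78 reads in any library. H2-Oa had 0 reads in 3 of the 4 liver controls and was too low to be tested between tissues. H2-Ob had a log2 fold change of 1.14 ± 1.29 in controls and 2.39 ± 1.501 in GOF, lung over liver, and did not pass. H2-Eb2, another class II beta chain gene, had 14 reads over all libraries.

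Ciita, which recruits the transcription machinery to class II promoters, stood at 1.86, 1.46, 1.94 and 2.00 CPM in liver controls and at 10.08, 2.27, 14.2 and 6.19 CPM in lung controls. In GOF it stood at 2.15, 1.65, 2.30 and 3.05 CPM in liver and at 7.45, 3.68, 9.21 and 8.30 CPM in lung. Lung library E was the lowest of its group in both genotypes, and the tissues did not overlap in either. The log2 fold change was 2.18 ± 0.55 (adjusted p = 0.0136, edgeR) in controls and 1.66 ± 0.42 (adjusted p = 0.0146) in GOF. The call was lost with the replicate block, a fit without liver G and lung D, in both genotypes (adjusted p = 0.112 in controls and 0.115 in GOF, edgeR). In controls it was also lost without lung control F (1.77, adjusted p = 0.0576). In the lung controls the highest Ciita library was F, while H2-Aa, H2-Ab1, H2-Eb1, H2-Ea-ps and Cd74 were highest in D. A further entry named Ciita had reads in 4 libraries, at most 26.

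Markers of other cells also differed between the tissues. The summed level of H2-Aa, H2-Ab1, H2-Eb1 and Cd74 was 31.7 to 101 CPM in liver controls, 33.3 to 52.9 CPM in liver GOF, 321 to 1005 CPM in lung controls and 427 to 820 CPM in lung GOF. Alveolar type 2 cells, which are themselves known to carry class II, were a visible admixture: their 8 markers summed to 145 to 188 CPM in liver and 1461 to 13908 CPM in lung, and Sftpc was at 0 in 7 of 8 liver libraries. In lung controls D, B, F and E, in that order from the highest, the class II sum was 1005, 742, 451 and 321 CPM, and the type 2 marker sum 13908, 6076, 5815 and 1461 CPM. In lung GOF B, D, E and F, again from the highest class II sum, the values were 820, 732, 499 and 427 CPM beside 8932, 12306, 1979 and 6726 CPM. Controls thus kept the same order in both sums, and GOF did not.

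Blood cell markers differed in both directions. Pan-leukocyte markers and those of neutrophils and monocytes were higher on average in lung. Macrophage and Kupffer cell markers were higher in liver, at 192 to 1532 CPM against 77.0 to 187 CPM in lung. T and NK cell markers summed to 12.6 to 36.7 CPM in liver and 6.34 to 17.9 CPM in lung. The 7 pan-leukocyte markers in the tables summed to 13.7 to 31.9 CPM in liver, 19.4 to 132 CPM in lung controls and 111 to 216 CPM in lung GOF, and their Ptprc lay at 0.133 to 6.04 CPM in liver and 1.53 to 33.8 CPM in lung. Lung control B, with 19.4 CPM of pan-leukocyte markers, lay within the liver range and had the second highest class II sum of the lung controls. Neutrophil and monocyte markers, of which Lyz2 is also made by type 2 cells, summed to 2.79 to 31.9 CPM in liver and 375 to 2178 CPM in lung. B cell markers summed to 5.82 to 15.9 CPM in liver and 7.82 to 23.3 CPM in lung. The 8 dendritic cell markers summed to 90.9 to 126 CPM in liver and 127 to 190 CPM in lung, without overlap. In every liver library this sum lay above that of the pan-leukocyte markers (13.7 to 31.9 CPM), and which cells its reads came from was not tested. Of the dendritic cell markers, 1 of 6 tested was higher in lung controls (median log2 fold change of 1.51), where 14.0% of all genes were higher. In GOF it was 4 of 6 (median 2.26), where 14.5% of all genes were higher, and none was lower in either. Clec9a, a receptor of cross-presenting dendritic cells, was higher in both (0.89 ± 0.22 and 1.38 ± 0.21, adjusted p = 0.0122 and 0.000708, edgeR), and Itgax, Ccr7 and Cd209a in GOF, whereas Flt3, a defining gene of these cells, was at most 1.35 CPM. The part of these cells in the class II difference was not tested.

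**Figure D2:**
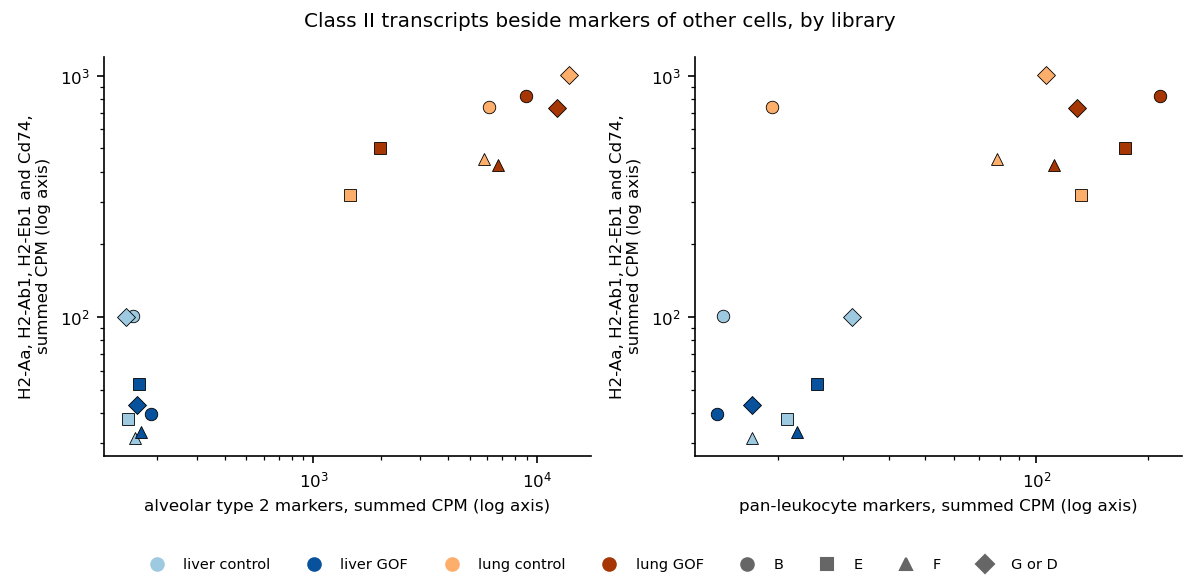
Summed CPM of H2-Aa, H2-Ab1, H2-Eb1 and Cd74 in each library (vertical, log axis) against the summed alveolar type 2 markers (left) and pan-leukocyte markers (right, both log axes); colours give the group and shapes the letter. Lung libraries (321 to 1005 CPM of class II) lie above liver libraries (31.7 to 101 CPM) and also carry more of the type 2 markers, while lung control B lies within the liver range of leukocyte markers.

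Among class I heavy chain genes, the tissues differed in single members. H2-Q10 stood at 25.1, 11.1, 26.5 and 12.0 CPM in liver controls and at 0.702, 0.735, 2.73 and 0.711 CPM in lung controls. In GOF it stood at 17.9, 8.34, 15.3 and 18.8 CPM in liver and at 1.95, 2.17, 0.797 and 1.72 CPM in lung. Every lung library was below every liver library, and the log2 fold change was -3.93 ± 0.57 (adjusted p = 0.000544, edgeR) in controls and -3.17 ± 0.41 (adjusted p = 0.000253) in GOF, kept in all alternatives. Hepatocyte markers, whose cells are known to secrete this molecule, summed to 651 to 3425 CPM in liver and 0.0387 to 12.3 CPM in lung; their part in the difference was not tested. Liver controls B and F, the higher ones in H2-Q10, also had the higher hepatocyte sums, 3425 and 1740.5 CPM, against 757 and 726 CPM in E and G. In liver GOF B, E, F and G the sums were 1601, 651, 1011 and 784 CPM. There the order was not kept, since G had the highest H2-Q10 and a sum below those of B and F.

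H2-Q2 was higher in lung controls, at 35.9, 38.5, 37.0 and 37.6 CPM against 12.2, 18.8, 17.5 and 18.5 CPM in liver controls (1.16 ± 0.18, adjusted p = 0.000893, edgeR). In GOF it did not pass (0.44 ± 0.32), and lung GOF E and F, at 16.4 and 18.0 CPM, lay within the liver GOF range of 14.7 to 26.2 CPM. H2-T24 was at 176 ± 23.6 CPM in lung controls and 124 ± 30.4 CPM in liver controls (SD, n = 4 each), and at 170 ± 20.4 and 109 ± 9.90 CPM in GOF. It passed in GOF (0.66 ± 0.15, adjusted p = 0.00698, edgeR), a call lost without the libraries low in H2-T23 (adjusted p = 0.116), and in controls with DESeq2 (adjusted p = 0.0393) and without liver control E (0.67, adjusted p = 0.0298) only. Whether a tissue difference itself differed between genotypes is the same contrast as the interaction given below, in which no member passed.

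H2-T10 and H2-T22, class I-like molecules that some gamma-delta T cells recognise, were lower in lung controls. H2-T10 stood at 28.3, 19.9, 33.3 and 18.6 CPM in liver and at 13.4, 15.7, 13.5 and 15.9 CPM in lung, without overlap (-0.77 ± 0.23, adjusted p = 0.0299, edgeR). That call was lost without liver control B (adjusted p = 0.0711) or F (0.126) and without lung control B (0.068), F (0.0683) or D (0.0534). H2-T22 (-0.62 ± 0.19, adjusted p = 0.0351) overlapped between tissues, and its call was lost without any single library other than liver control E, with adjusted p between 0.0521 and 0.0989. Neither passed in GOF.

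Classical class I and its light chain showed small differences between the tissues that did not pass in edgeR. In controls, H2-K1 was at 1282 ± 273 CPM in liver and 1359 ± 326 CPM in lung, H2-D1 at 2456 ± 106 and 2933 ± 114 CPM, and B2m, the shared light chain, at 1889 ± 123 and 2282 ± 267 CPM (SD, n = 4 each). H2-D1 and B2m did not overlap between tissues and did not pass (0.26 ± 0.14 and 0.28 ± 0.15, adjusted p = 0.204 and 0.219, edgeR), though DESeq2 called H2-D1 (adjusted p = 0.0252). In GOF B2m was at 1635 ± 142 and 2280 ± 503 CPM (0.49 ± 0.19, adjusted p = 0.0872; with DESeq2 0.0279).

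The peptide transporter chains and their partner tapasin gave no stable call. Tap1 was at 167 ± 20.01 CPM in liver and 144 ± 15.1 CPM in lung controls, and Tap2 at 130 ± 12.3 and 117 ± 10.21 CPM (SD, n = 4 each). Tapbp, which holds empty class I molecules at the transporter, was at 426 ± 12.9 and 503 ± 21.9 CPM in controls, without overlap; edgeR did not call it (0.24 ± 0.12, adjusted p = 0.194) and DESeq2 did (0.27, adjusted p = 0.034). In GOF it was at 367 ± 52.8 and 515 ± 54.7 CPM (0.50 ± 0.16, adjusted p = 0.0453, edgeR), a call kept in only 2 of 14 alternatives and lost on leaving out any single library, with adjusted p up to 0.109.

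The immunoproteasome subunit Psmb8 was lower in lung controls, at 43.1, 50.3, 57.3 and 40.5 CPM against 95.6, 67.7, 96.8 and 64.5 CPM in liver controls. The groups did not overlap, and the log2 fold change was -0.76 ± 0.19 (adjusted p = 0.0126, edgeR). The call was lost without liver control F (-0.64, adjusted p = 0.0582, edgeR) and with the replicate block, a fit without liver G and lung D (-0.77, adjusted p = 0.085, edgeR). In GOF Psmb8 was at 67.5 ± 8.28 CPM in liver and 59.0 ± 12.2 CPM in lung and did not pass. Psmb10, another catalytic subunit, was at 120 ± 20.4 and 117 ± 17.9 CPM in controls, and Nlrc5, the class I counterpart of Ciita, at 41.4 ± 11.6 and 36.5 ± 7.79 CPM (SD, n = 4 each). Neither passed in edgeR's fit of either genotype. In GOF Nlrc5 was at 42.0 ± 8.38 CPM in liver and 27.5 ± 7.21 CPM in lung (-0.60 ± 0.23, adjusted p = 0.0779), and it was called lower with library totals (-0.69, adjusted p = 0.0395) and without lung GOF B (-0.76, adjusted p = 0.038).

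**Figure D3:**
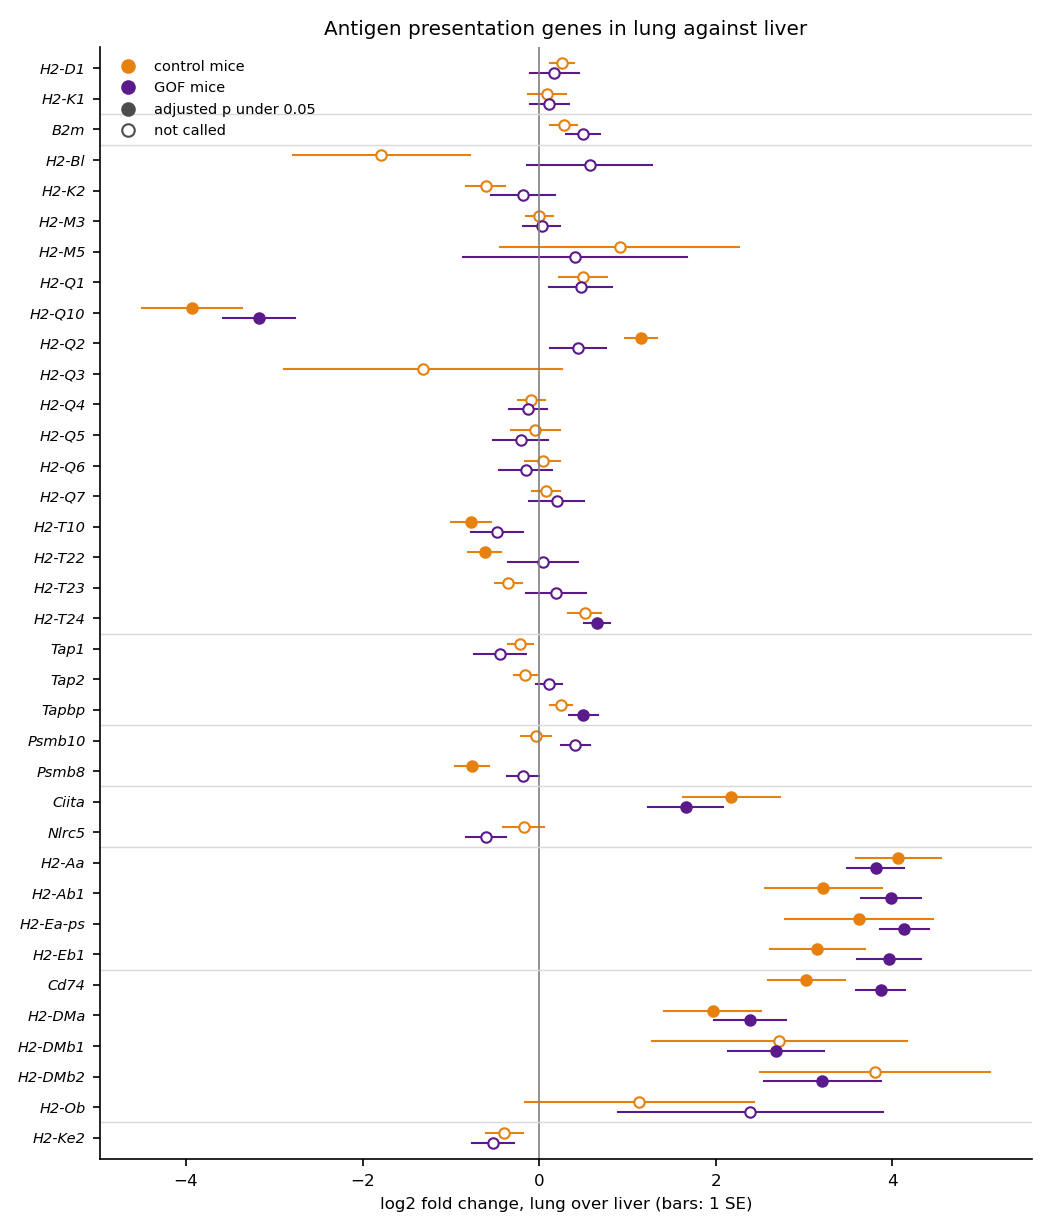
Log2 fold change of each tested member, lung over liver, in control (orange) and GOF (purple) libraries, with bars of 1 SE; filled points have an adjusted p under 0.05 and grey lines separate roles. Class II chains, Cd74, H2-DMa and Ciita lie between 1.66 and 4.13 and are filled in both genotypes, H2-Q10 lies at -3.93 and -3.17, and H2-K1 and H2-D1 lie near 0.

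Other genes of these pathways, in lists that do not overlap the members, gave calls in both directions. Of 16 MHC regulators tested in controls 1 was higher in lung and 2 were lower (14.0% and 11.0% of all genes). Socs1, an inhibitor of interferon signalling, stood at 24.4, 156, 130 and 92.4 CPM in liver controls and at 16.6, 20.3, 12.4 and 20.2 CPM in lung controls (-2.53 ± 0.46, adjusted p = 0.0022, edgeR), with liver control B far below the other liver controls. Macrophage and Kupffer cell markers summed to 225, 1532, 659 and 746 CPM in the same liver controls and to 77.0 to 116 CPM in lung controls, again with B lowest in liver; their part in this difference was not tested. Irf8, an interferon regulatory factor, was also lower (-1.60 ± 0.35, adjusted p = 0.00664), and Ifngr1, a chain of the interferon-gamma receptor, higher (0.81 ± 0.15, adjusted p = 0.00243). In GOF 1 was higher and 3 were lower (14.5% and 10.8% of all genes), with Socs1 at -2.58 ± 0.54, Irf8 at -1.73 ± 0.47 and Ifngr1 at 0.73 ± 0.17. These 3 calls in GOF were lost without the libraries low in H2-T23, with adjusted p of 0.133, 0.259 and 0.222, and that of Irf8 also without liver GOF E (0.0578). None of the regulators Rfx5, Rfxap, Rfxank and Nfya to Nfyc, which bind class II promoters, was called.

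Of 16 tested genes of peptide processing, 4 were higher in lung controls and 2 lower (14.0% and 11.0% of all genes). The same counts held in GOF (14.5% and 10.8% of all genes). Ctss, the protease that trims the invariant chain, stood at 3.66, 4.56, 3.94 and 12.0 CPM in liver controls and at 12.5, 13.8, 11.7 and 25.8 CPM in lung controls (1.41 ± 0.44, adjusted p = 0.0396, edgeR), a call kept in 6 of 13 alternatives and lost without liver control B, E or F or lung control B, E or D. In GOF its log2 fold change was 3.15 ± 0.51 (adjusted p = 0.00109), and lung GOF B stood highest at 92.5 CPM; the pan-leukocyte sum was also highest there, at 216 CPM. Tapbpl, a tapasin relative, was higher in both genotypes (0.79 ± 0.18 and 1.02 ± 0.19). The lysosomal proteases Ctsb (-0.97 ± 0.18 and -0.89 ± 0.17) and Lgmn (-0.87 ± 0.21 and -0.78 ± 0.21) were lower in both. In GOF the calls of Ctsb and Lgmn were lost without the libraries low in H2-T23 (adjusted p = 0.0796 and 0.297), and that of Lgmn also without liver GOF E, lung GOF E or lung GOF F.

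Class I relatives outside the H2 cluster had 3 of 6 tested genes lower in lung controls and none higher (11.0% and 14.0% of all genes). Fcgrt, the neonatal Fc receptor heavy chain, stood at 545, 812, 515 and 444 CPM in liver controls and at 123, 131, 89.3 and 94.3 CPM in lung controls (-2.40 ± 0.22, adjusted p = 3.18e-05, edgeR). Hfe, the haemochromatosis protein of iron sensing, was lower by a log2 fold change of -1.35 ± 0.16 (adjusted p = 0.000169). Both were lower in GOF as well (-2.09 ± 0.24 and -1.17 ± 0.13) and kept their calls in all alternatives. Of 8 costimulation and checkpoint genes 1 was higher in lung controls, where 14.0% of all genes were higher. This was Cd40, a receptor for T cell help, from 3.19 to 5.48 CPM in liver to 13.1 to 28.4 CPM in lung controls (2.30 ± 0.32, adjusted p = 0.000433, edgeR). It was higher in GOF too (2.23 ± 0.30).

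Activated beta-catenin was compared with control within each tissue next. In liver no member passed the unpaired test, most lay slightly lower in GOF, and in the paired test H2-T23 and H2-T22 fell. H2-T23 encodes Qa-1, a class I molecule that shows leader peptides of other class I chains to NK cells. By edgeR's quasi-likelihood test without pairs 0 of 36 members were called, where 0.0321% of 15555 genes were called; DESeq2 also called 0, and 4 had an unadjusted p under 0.05, all lower, where 3.08% of all genes did so. Lower values were found for 28 of 36 members, with a median log2 fold change of -0.23 (7822 of 15555 genes and -0.0022 over all genes). In the paired test 2 members were called, both lower, where 2.58% of all genes were called and 1.04% were lower. Hepatocyte markers lay lower in the same comparison. All 8 had negative log2 fold changes, with a median of -0.83 without pairs and -0.64 in pairs, and 1, Ttr, passed in pairs (-0.94 ± 0.18, adjusted p = 0.0161, edgeR). Their sum was 3425, 757, 1740.5 and 726 CPM in liver controls B, E, F and G and 1601, 651, 1011 and 784 CPM in GOF, lower in pairs B, E and F and higher in G. Their part in the members' differences was not tested.

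H2-T23 stood at 675, 543, 523 and 475 CPM in liver controls B, E, F and G and at 416, 244, 407 and 203 CPM in liver GOF of the same letters. It was lower in GOF in all 4 pairs and the groups did not overlap; E and G were far lower than B and F within GOF. The log2 fold change was -0.80 ± 0.24 without pairs (adjusted p = 0.465, edgeR) and -0.85 ± 0.13 in pairs (adjusted p = 0.00613). In pairs the call was kept on leaving out any 1 pair. With pairs B and F alone H2-T23 also passed (-0.53, adjusted p = 0.0247, edgeR), and over these alternatives its log2 fold change was -1.02 to -0.53. Pairs B and F were kept after the class I values had been seen, by leaving out GOF libraries low in H2-T23. That fit rests on few libraries, and its result is a description. Without pairs H2-T23 passed in none of 13 alternatives (adjusted p 0.0825 to 1).

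H2-T22 stood at 164, 87.6, 130 and 113 CPM in liver controls and at 109, 42.8, 101 and 62.1 CPM in liver GOF. It too was lower in GOF in all 4 pairs, though the groups overlapped. The log2 fold change was -0.64 ± 0.29 without pairs (adjusted p = 0.763, edgeR) and -0.70 ± 0.12 in pairs (adjusted p = 0.00847). The paired call was kept on leaving out any 1 pair and lost with pairs B and F alone (-0.47, adjusted p = 0.115).

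The liver libraries with the lowest H2-T23 had the highest H2-D1. H2-D1 was at 2509, 2537, 2476 and 2302 CPM in liver controls and at 1691, 3591, 2001 and 3340 CPM in liver GOF, so that E and G lay above all controls and B and F below them. In lung H2-T23 was at 469, 402, 405 and 461 CPM in controls B, E, F and D and at 490, 173, 293 and 479 CPM in GOF, and H2-D1 at 2999, 2870, 2809 and 3057 CPM and at 2703, 3593, 2215 and 3379 CPM. Lung GOF E had the lowest H2-T23 of its tissue and also the highest H2-D1, which lay close to that of lung GOF D. The same 3 libraries were the lowest of their groups in H2-T22, lung GOF E with 29.9 CPM against 76.8 to 111 CPM in the other lung GOF libraries. H2-D1 did not pass in either tissue with all libraries, and its direction in liver depended on them (0.12 ± 0.24 with all libraries, -0.41 without GOF E and G, edgeR without pairs). Since those libraries were picked for their class I values, H2-D1 among them, its direction without them is set by that choice. What sets these libraries apart was not tested.

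**Figure D4:**
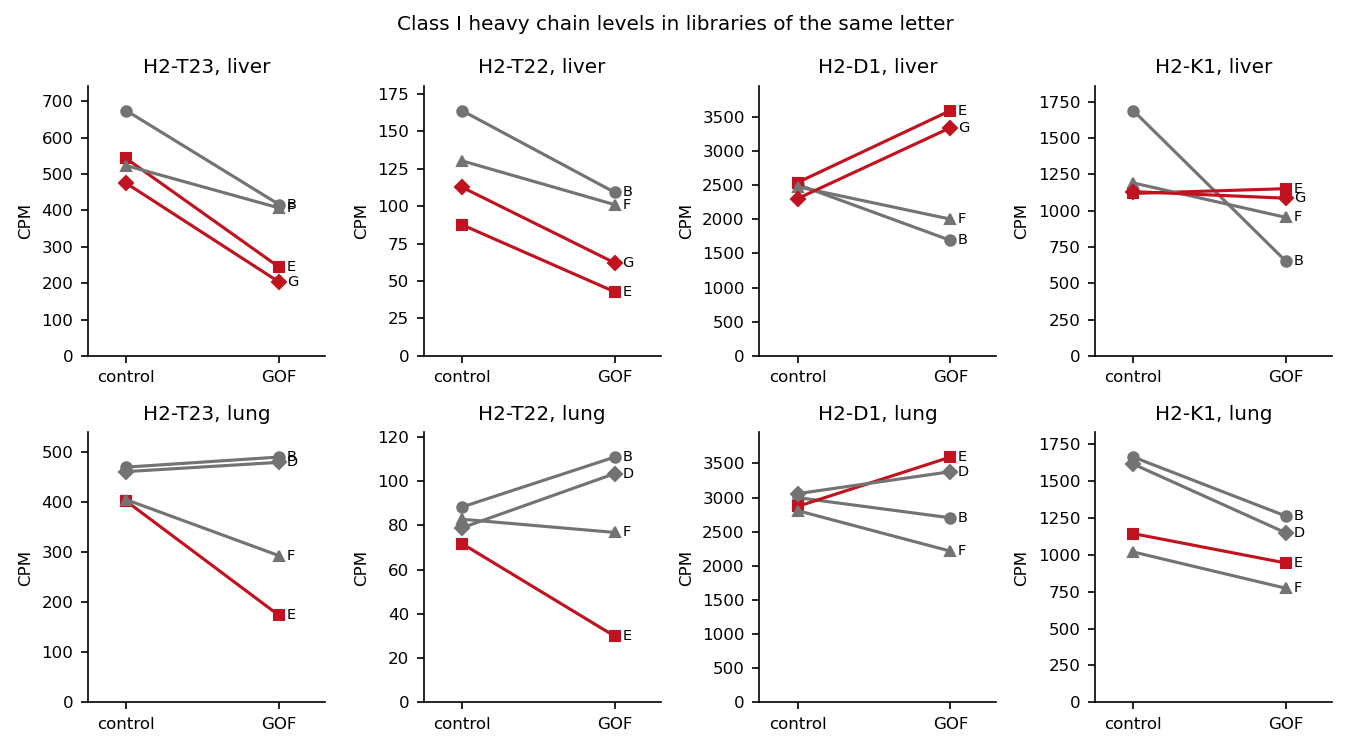
CPM of H2-T23, H2-T22, H2-D1 and H2-K1 in control and GOF libraries, joined by letter, in liver (top) and lung (bottom); red lines mark the pairs whose GOF library stood apart (liver E and G, lung E). In liver H2-T23 is lower in GOF in all 4 pairs, while H2-D1 is higher in pairs E and G and lower in B and F.

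Other class I members of liver lay lower in GOF without passing. H2-K1 was at 1689, 1119, 1191 and 1131 CPM in controls and at 650, 1151, 953 and 1086 CPM in GOF, with a log2 fold change of -0.41 ± 0.22 without pairs and -0.42 ± 0.19 in pairs (adjusted p = 0.833 and 0.318, edgeR). Pair B differed most, since its control was the highest and its GOF library the lowest. With pairs B and F alone 5 of 34 members passed, all lower, where 1.40% of all 15851 genes did so: H2-K1 (-0.85, adjusted p = 0.00118, edgeR), H2-T23, Psmb8 (-0.62, 0.0366), H2-Q6 (-0.56, 0.0376) and H2-D1 (-0.43). These pairs were kept after the class I values had been seen, H2-T23 among them, and B and F are the pairs in which H2-D1 was lower. The count, from few libraries, is thus a description, and H2-D1's direction was fixed by the choice. In all 4 pairs together Psmb8, at 81.2 ± 17.4 and 67.5 ± 8.28 CPM (SD, n = 4 each), did not pass.

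Besides H2-T23, the genes Tap2, H2-K2 and H2-M3 lay lower in GOF without overlap between the groups, which makes 4 of 36 members where 2.27% of all genes did so. Tap2 was at 148, 121, 126 and 126 CPM in controls and at 92.1, 101, 110 and 110 CPM in GOF (-0.33 ± 0.12 without pairs and -0.33 ± 0.10 in pairs, adjusted p = 0.688 and 0.140, edgeR). H2-M3, which shows formylated bacterial peptides, was at 42.7 ± 2.16 and 36.4 ± 3.14 CPM (SD, n = 4 each). B2m was at 1889 ± 123 and 1635 ± 142 CPM, lower in all 4 pairs. Tap1, Tapbp, Psmb10 and Nlrc5 did not pass, and Tap1 spread from 106 CPM in GOF B to 252 CPM in GOF E.

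**Figure D5:**
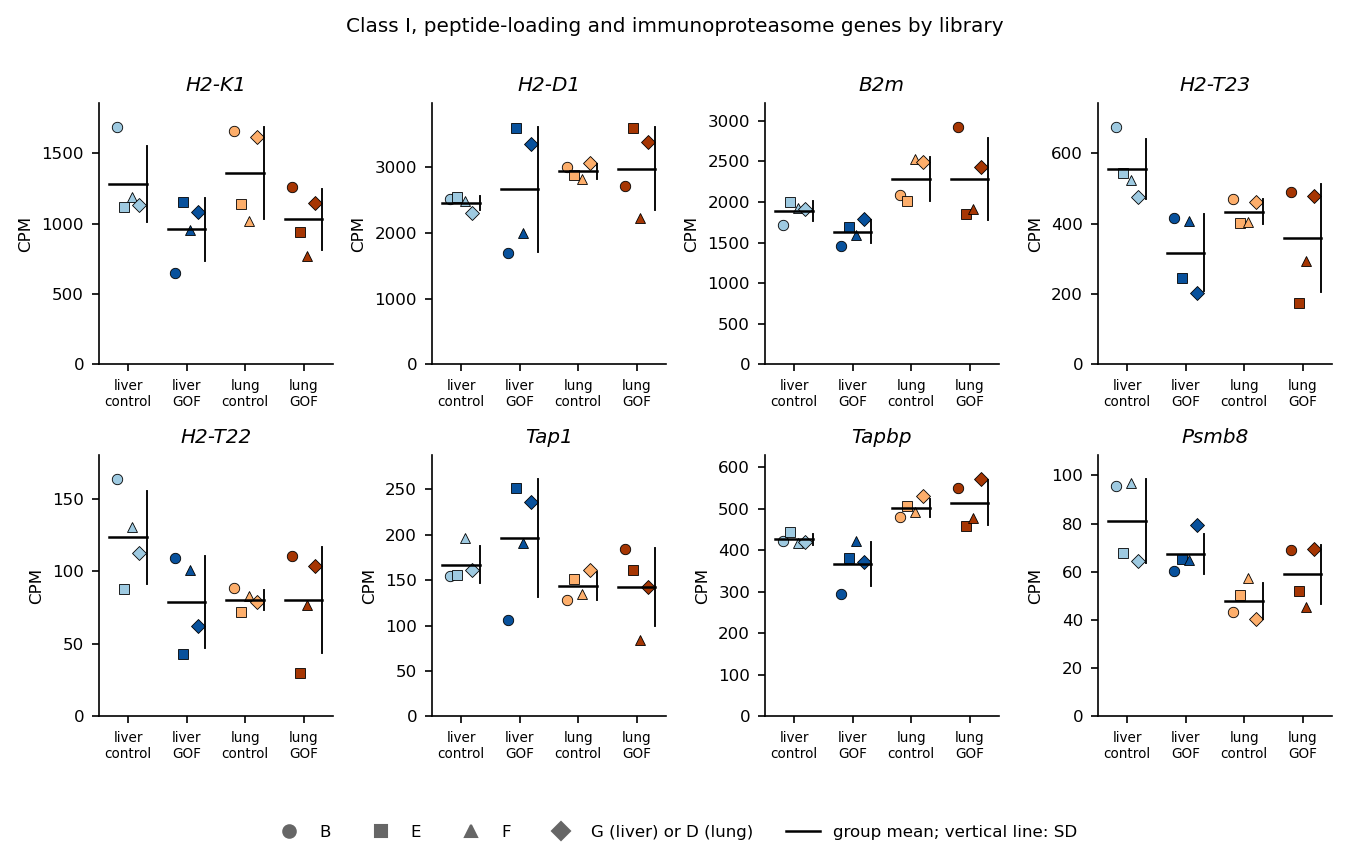
CPM of 8 class I, peptide-loading and immunoproteasome genes in each library, by group, with shapes for the letter, horizontal lines for the group mean and vertical lines for the SD. H2-T23 is lower in every liver GOF library (203 to 416 CPM) than in every liver control (475 to 675 CPM), and H2-D1 and Tap1 spread more widely in liver GOF than in liver controls.

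Class II genes of liver also did not pass. H2-Eb1, with the values given above, had a log2 fold change of -1.27 ± 0.49 without pairs (adjusted p = 0.714, edgeR) and -1.13 ± 0.35 in pairs (adjusted p = 0.122), lower in GOF in all 4 pairs. H2-Ab1 was at 12.4 ± 10.47 CPM in controls and 6.09 ± 2.26 CPM in GOF, and Cd74 at 40.1 ± 21.5 and 26.4 ± 7.10 CPM (SD, n = 4 each). The controls spread more widely than GOF in both, with B and G above E and F. H2-Aa (7.19 ± 3.02 and 6.60 ± 2.68 CPM), Ciita (1.81 ± 0.245 and 2.28 ± 0.58 CPM) and the DM and DO genes did not pass either. Among the related lists, Hfe (-0.42 ± 0.09, adjusted p = 0.0377) and Icosl, a T cell costimulator (-0.60 ± 0.14, adjusted p = 0.0438), were lower in the paired test. The call of Hfe was lost without pair B, E or F, and that of Icosl on leaving out any 1 pair.

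In lung 0 of 36 members were called without or with pairs, by edgeR's quasi-likelihood test, and 0 by DESeq2. Over all 15641 genes 0 were called without pairs, and 0.0192% with pairs. An unadjusted p under 0.05 was found for 1 member without pairs, H2-Bl, which was higher, where 1.36% of all genes were, and for 6 with pairs, 2 higher and 4 lower (2.91% and 3.19% of all genes). The median log2 fold change of the members was -0.02 (0.01 over all genes), with 17 positive and 19 negative.

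H2-K1 came closest in pairs. It stood at 1662, 1143, 1019 and 1614 CPM in lung controls B, E, F and D and at 1261, 944, 773 and 1147 CPM in lung GOF, lower in all 4 pairs with overlapping groups. The log2 fold change was -0.39 ± 0.21 without pairs (adjusted p = 1, edgeR) and -0.39 ± 0.09 in pairs (adjusted p = 0.278). H2-Bl, a class I-like entry of low level, was at 1.65, 0.245, 0.410 and 0.178 CPM in controls and at 3.71, 4.18, 1.15 and 2.03 CPM in GOF, higher in all 4 pairs and not passing (2.16 ± 0.94, adjusted p = 1).

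Class II genes did not pass in lung. H2-Aa was at 120 ± 69.4 CPM in controls and 92.1 ± 18.6 CPM in GOF, H2-Ab1 at 115 ± 56.7 and 95.7 ± 33.0 CPM and H2-Eb1 at 69.9 ± 39.5 and 50.6 ± 18.5 CPM (SD, n = 4 each). Cd74 was at 325 ± 142 and 381 ± 122 CPM and Ciita at 8.19 ± 5.14 and 7.16 ± 2.43 CPM. The 3 chains were lower in GOF in 3 of 4 pairs each, and Cd74 was higher in 3 of 4. H2-Ea-ps was higher in GOF in all 4 pairs (0.50 ± 0.29 without pairs and 0.54 ± 0.16 in pairs, adjusted p = 1 and 0.522, edgeR), with overlapping groups. For the 3 chains and Cd74 the spread within the control group was larger than the difference.

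The effect of GOF was not shown to differ between the tissues for any member. The interaction, the effect in lung minus that in liver over all 16 libraries, called 0 of 37 members without and with pairs by edgeR's quasi-likelihood test, and 0 by DESeq2. Over all 17536 genes 0.00570% were called without pairs and 0.490% with pairs. An unadjusted p under 0.05 was found for 1 member without pairs, Psmb8 (0.57 ± 0.26, adjusted p = 0.865), which was 81.2 and 67.5 CPM in liver and 47.8 and 59.0 CPM in lung, control and GOF means; 2.55% of all genes were higher at that threshold. For H2-T23 the difference was 0.53 ± 0.40 (adjusted p = 0.99) and for H2-T22 0.65 ± 0.47 (adjusted p = 0.982). In pairs H2-T22 passed on leaving out lung pair E (0.92, adjusted p = 0.0456) and not otherwise.

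In the authors' deposited table of liver GOF against control, 0 of 36 members with an adjusted p had one under 0.05, the smallest being 0.0854. In the authors' deposited table for lung it was 0 of 40, the smallest being 1.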

How the data were processed

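RNA of CD31-sorted endothelial cells was sequenced from 16 libraries, which the labels describe as 4 biological samples per condition; the letters' meaning is not given. The deposited raw counts per gene came from TopHat2 2.0.11, Bowtie2 2.2.1, SAMtools 0.1.19 and HTSeq 0.6.1 on mm9, per the submitters' processing notes. The authors' deposited comparison tables hold mean normalized signal, log2 fold changes, standard errors and test statistics (score) and p-values, per the file headers; DESeq2 is named in the submitters' processing notes. The 16 deposited CPM columns were not used.

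Counts were tested with edgeR 4.0.16 (R 4.3.3, limma 3.58.1; TMM, filterByExpr with minimum count 10 and total 15, quasi-likelihood F test, Benjamini-Hochberg threshold 0.05, prior count 0.125), for all genes of each comparison, with and without the letter as a block. DESeq2 1.42.0, RLE size factors, library totals, no filter and left-out libraries were alternatives. The scripts were tested on simulated data. Plotted and printed CPM used 1 TMM scaling; fold changes came from each comparison's own fit, with SE. Interaction fits used all 16 libraries, and other fits their 2 groups of 4. Fits between tissues with the block were an exception. They used only the letters B, E and F, which both tissues have, and so left out liver G and lung D.

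Same-letter libraries deviated together within tissues (correlations 0.465, 0.398, 0.285 and 0.256 for liver B, E, F and G, and 0.229, 0.341, 0.351 and 0.216 for lung B, E, F and D), so the letters were taken to pair control and GOF there. Between tissues they did not (-0.0615 to 0.118).

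Members and lists were chosen with earlier results of these data known. Values were given for members without the H2- prefix, for the main class I and class II genes, for members called within a tissue, and for the 6 largest called folds each way between tissues. H2-Q2, H2-T24, H2-Bl, H2-K2 and H2-Q6 were named after their values were seen. Promoter windows came from RefSeq, GRCm38.p6. Total counts of 22815467 to 37127150 limit genes with few reads.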

Additional observations from a re-analysis of the deposited data

Results flagged for a closer look

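Among 144 groups of 4 libraries of the members, 6 held 1 library far from the other 3 by Dixon's criterion, where chance gives about 1 in 20 groups. The flags were thus no more frequent than that share. Tap1 was at 197 CPM in liver control F, against 155 to 161 CPM in the other liver controls. H2-K1 was at 1689 CPM in liver control B, against 1119 to 1191 CPM. H2-DMb1 was at 7.05 CPM in liver control B, against 0 to 0.4997 CPM. H2-K2 was at 6.98 CPM in liver GOF B, against 15.3 to 16.6 CPM. H2-Q10 was at 2.73 CPM in lung control F, against 0.702 to 0.735 CPM. H2-Bl was at 1.65 CPM in lung control B, against 0.178 to 0.410 CPM. Liver control B and lung control B account for 3 of the 6.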

How the results depend on the processing

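In liver GOF against control the members called went from 0 to 2 with the replicate block and to 5 with the block over pairs B and F alone; leaving out any 1 pair under the block kept 2, and no other alternative called a member there. The genes called went from 5 to 401 with the block, 3 with library totals, 27 with no filter, 152 with DESeq2 and 2 without the libraries low in H2-T23, an alternative chosen after seeing the data like that of pairs B and F; leaving out 1 library gave 1 to 12, and leaving out 1 pair under the block 256 to 308. In lung the genes called went from 0 to 3 with the block and 13 with DESeq2, with 0 to 1 without 1 library and 0 to 5 without 1 pair. For the interaction they went from 1 to 86 with the block and 46 with DESeq2, with 1 to 3 without 1 library and 54 to 184 without 1 pair, where the members called were 0 to 1. Between tissues, genes called fell from 3940 to 2104 in controls and from 4033 to 2022 in GOF with the replicate block. In GOF they fell to 2038 without the libraries low in H2-T23. The block there also left out liver G and lung D, since only the letters B, E and F are in both tissues. Fewer libraries and the block itself thus cannot be told apart in these counts, and the letters do not pair samples between tissues. With DESeq2 the genes called rose to 4957 in controls and 5140 in GOF. Members called between tissues were 8 with the block, 16 with DESeq2 and 8 to 13 without 1 library in controls. In GOF they were 8 with the block, 13 with DESeq2, 9 without the libraries low in H2-T23 and 11 to 12 without 1 library. With the block the calls of Ciita, Psmb8, H2-T10 and H2-T22 were lost in controls, and those of Ciita, Tapbp, H2-DMb2 and H2-T24 in GOF. Of the list genes named, Tapbpl and Ifngr1 lost their calls with the block in both genotypes, and Ctsb, Lgmn, Socs1 and Irf8 in GOF. The cause of these shifts was not tested. Low counts limit H2-DMb1, H2-DMb2, H2-Oa, H2-Ob and H2-Bl. Of 1600 log2 fold changes of single genes recomputed, 64 changed sign, 0 of them from a called value and 1 to a called one (H2-D1 with pairs B and F alone, whose direction the choice of those pairs fixed). In liver GOF against control, H2-D1 went from 0.12 to -0.41 without the libraries low in H2-T23 and -0.059 to 0.29 without 1 library. H2-D1 under the block went from 0.047 to -0.43 with pairs B and F alone and -0.12 to 0.25 without 1 pair. H2-Aa was -0.11 and ranged from -0.33 to 0.15 without 1 library. H2-Aa under the block was -0.12 and ranged from -0.35 to 0.17 without 1 pair. H2-Ea-ps went from -0.035 to 0.88 with the replicate block and -0.43 to 1.28 without 1 library. Tap1 went from 0.24 to -0.17 without the libraries low in H2-T23. Tap1 under the block went from 0.17 to -0.29 with pairs B and F alone and -0.0081 to 0.41 without 1 pair. Nlrc5 went from 0.030 to -0.23 without the libraries low in H2-T23 and -0.10 to 0.21 without 1 library. Nlrc5 under the block went from 0.047 to -0.10 with pairs B and F alone and -0.10 to 0.17 without 1 pair. In lung GOF against control, H2-T22 went from 0.0048 to -0.14 with the replicate block, -0.0048 with RLE size factors, -0.0017 with no filter, -0.0050 with DESeq2 and -0.19 to 0.28 without 1 library. H2-T22 under the block was -0.14 and ranged from -0.34 to 0.21 without 1 pair. H2-D1 went from 0.025 to -0.00049 with the replicate block, -0.076 without the libraries low in H2-T23 and -0.076 to 0.14 without 1 library. H2-D1 under the block was -0.00049 and ranged from -0.11 to 0.11 without 1 pair. H2-Aa under the block was -0.21 and ranged from -0.49 to 0.0022 without 1 pair. H2-Ab1 was -0.25 and ranged from -0.46 to 0.039 without 1 library. Ciita went from -0.19 to 0.0097 with the replicate block, 0.030 without the libraries low in H2-T23 and -0.50 to 0.23 without 1 library. Ciita under the block was 0.0097 and ranged from -0.21 to 0.23 without 1 pair. In lung against liver controls, H2-K1 went from 0.088 to -0.069 with the replicate block, -0.047 with library totals and -0.026 to 0.27 without 1 library. Nlrc5 went from -0.18 to 0.041 with the replicate block and -0.31 to 0.0037 without 1 library. Psmb10 was -0.034 and ranged from -0.13 to 0.080 without 1 library. In lung against liver GOF, H2-K1 was 0.11 and ranged from -0.035 to 0.23 without 1 library. H2-T23 went from 0.19 to -0.23 with the replicate block. H2-T22 went from 0.041 to -0.28 with the replicate block, -0.069 with library totals, -0.10 without the libraries low in H2-T23 and -0.16 to 0.31 without 1 library.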

Other observations

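Platelet and megakaryocyte markers summed to 940 CPM in lung control E and 625 CPM in lung GOF E, against 31.7 to 127 CPM in the other lung libraries. T and NK cell markers summed to 12.6 to 36.7 CPM in liver and 6.34 to 17.9 CPM in lung, and alveolar macrophage markers to 0 to 12.2 CPM and 7.02 to 32.9 CPM.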
